A study of Mus musculus with 6 samples.

Results

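The 10 genes described here are the transcription factor gene Nfe2l2 (encoding NRF2), its inhibitor gene Keap1 and 8 target genes of NRF2, out of 56953 genes in the deposited table. They were taken by symbol from a fixed list: Nqo1 for the quinone branch, Hmox1 for the heme branch, Gclc, Gclm, Slc7a11 and Gsta4 for the glutathione branch, and Txnrd1 and Srxn1 for the thioredoxin branch. All 10 were found. Each was measured by RNA sequencing in 1 library from each of 6 mouse pancreatic ductal adenocarcinoma (PDAC) cell lines: KPC850, KPC630, KPC490, KPC469, KPC180 and KPC142. The labels describe the cells as adenocarcinoma cells derived from KPC mice and give no treatment, no alleles, no culture conditions and no statement on clonality. The study set lines that attract few CD8+ T cells against lines that attract many, but the labels do not say which line is which, so no groups were formed and the lines are described side by side. With 1 library per line, differences between lines have no replicate check.

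NRF2 is a transcription factor of the response to oxidants and electrophiles. KEAP1, an adaptor of a CUL3 ubiquitin ligase, binds NRF2 and has it degraded, and stress relieves this, so that NRF2 enters the nucleus, pairs with a small MAF protein and binds antioxidant response elements near its targets. The targets make and use glutathione, keep thioredoxin and peroxiredoxin reduced, reduce quinones and break down heme. In pancreatic cancer this programme is known for lowering reactive oxygen species. Since NRF2 is controlled largely through the stability of the protein, the level of its mRNA is not a measure of its activity.

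Library totals ran from 16471558 counts in KPC142 to 18701274 in KPC630, so that 1 count was worth 0.0535 to 0.0607 CPM, the unit that scales counts to a common library size. Levels below are CPM on totals adjusted by TMM factors, a normalization that equalises the bulk of genes between libraries. The ratio between the extreme lines, highest over lowest, has an exact conditional binomial 95% interval that covers counting error only. Keratin genes of ductal epithelium were expressed in every line, with Krt7 between 140.5 CPM in KPC469 and 2572 in KPC630, Krt8 between 843 CPM in KPC469 and 4180 in KPC850, Krt18 between 543 in KPC469 and 2316 in KPC850, and Krt19 between 837 in KPC180 and 2755 in KPC630. Of 10 epithelial genes 7 passed the filter on low counts described below, and their list summed to 2879 CPM in KPC469 and 11859 in KPC850. Epcam was low, at 10.5 CPM in KPC630 and 0.243 CPM in KPC180. Cldn4, at 3.35 CPM or less, and Cldn7, at 6.39 CPM or less, were low too. The ductal factor gene Sox9 was highest in KPC469, at 43.4 CPM, and lowest in KPC142, at 4.55 CPM. Fibroblast genes summed to 0.659 to 7.30 CPM and endothelial genes to 1.74 to 7.03 CPM. KPC469, the line with the lowest sum over the epithelial list, was the highest line for Keap1, Hmox1 and Slc7a11. That sum is weighted to the keratin genes. Of the 7 epithelial genes kept, 3 were lowest in KPC469, while Cdh1 was lowest in KPC490, at 298 CPM against 400 in KPC469. The part of epithelial state in the levels of Keap1, Hmox1 and Slc7a11 was not tested. In bulk RNA, fewer cells expressing a gene and less RNA of it per cell cannot be told apart.

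All 10 members passed the filter on low counts, which kept 11531 genes. A gene was counted as varying when its range of log2 CPM over the 6 lines reached 4-fold. This held for 3 of the 10 members, Nqo1, Gsta4 and Slc7a11, against 13.2% of the genes kept, 15.4% of genes with 10 CPM in a line and 20.3% of genes with a count. A range of 2-fold or more held for 7 of the 10, against 46.7%, 44.9% and 56.3% of these. The median range of the members was 1.38 log2 units, beside 0.95 over all genes kept. KPC850 was the highest line for 4 members (14.8% of genes kept), KPC469 for 3 (21.3%), KPC142 for 2 (19.3%) and KPC630 for 1 (13.5%), and KPC180 (16%) and KPC490 (15.1%) for 0. The lowest line was KPC142 for 3 members (20.9% of genes kept), KPC180 (16.5%), KPC490 (12.2%) and KPC630 (14.8%) for 2 each, KPC469 for 1 (19.5%) and KPC850 for 0 (16.2%). At 10 members these shares and counts are a description.

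**Figure D1:**
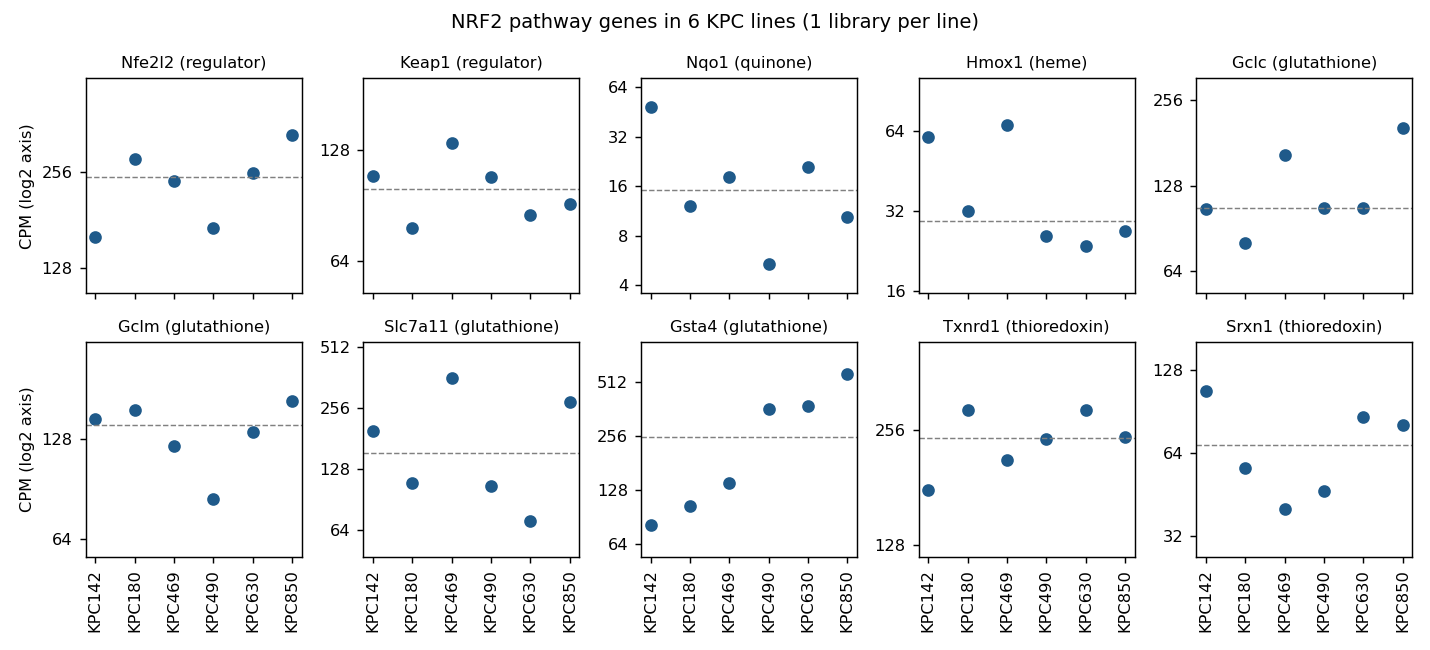
Level of each of the 10 members (CPM on a log2 axis) in the 6 cell lines, 1 point per library, with the median of the lines as a dashed line. Nqo1 spans 5.40 to 48.3 CPM and Gsta4 81.2 to 566 CPM, while Txnrd1 stays between 178 and 289 CPM.

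Nfe2l2 (ENSMUSG00000015839, chromosome 2) was expressed in every line. It stood at 334.7 CPM in KPC850, 281 in KPC180, 254 in KPC630, 239 in KPC469, 170.5 in KPC490 and 160.1 in KPC142. KPC490 and KPC142 were thus the low lines and KPC850 the high one, with a ratio of highest to lowest of 2.09 (1.996 to 2.19). Each step in this order was larger than counting error. Keap1 (ENSMUSG00000003308, chromosome 9) varied less, with 133.5 CPM in KPC469, 109 in KPC142, 109 in KPC490, 91.9 in KPC850, 85.5 in KPC630 and 78.9 in KPC180. Its ratio was 1.69 (1.58 to 1.81), and the levels of KPC142 and KPC490 differed by less than counting error, with a ratio of 1.002 (0.939 to 1.07). The line with the most Keap1, KPC469, lay near the median for Nfe2l2, and the line with the least, KPC180, was the second highest for Nfe2l2. Over the lines Nfe2l2 and Keap1 had r = -0.504 (exact permutation p = 0.321, adjusted over all genes kept 0.999) and rho = -0.657 (exact permutation p = 0.175, adjusted 1). Leaving out KPC142 and KPC490, whose Nfe2l2 levels lay farthest from the median, gave r = -0.489. With levels taken relative to the median of each gene's chromosome, r was -0.034. Keap1 overlaps the antisense gene Gm16754 by 510 exon bases, and that gene had 1.09 to 2.56 CPM.

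The sequence that NRF2 binds near its targets is the antioxidant response element, and stretches that match its core are shown here. Promoters of 7 of the 10 members, 250 bases before to 50 bases after the start in 9 entries, were matched by symbol in RefSeq on GRCm38.p6. Hmox1, Gclc and Gsta4 had no entry and were not searched. The counts were made on another build, so these positions apply to the sequences only. The letters TGACNNNGC and TGAGNNNGC were searched on both strands. At least 1 of them was found for 5 of the 7 genes and in 5 of the 9 entries, beside 27.8% of all 32851 promoter entries. The fully spelled TGAGTCAGC, a subset of TGAGNNNGC that also holds the AP-1 motif TGAGTCA, was present in the Srxn1 promoter and in 0.414% of all entries. The matches before the start follow, each with 10 flanking bases on both sides in lower case and the motif in capitals, read 5′ to 3′ on the strand given.
Srxn1, chr2:152105469-152105497, + strand: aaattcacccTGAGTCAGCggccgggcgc
Srxn1, chr2:152105356-152105384, - strand: ccagagaggaTGAGTCGGCtctcagtaga
Gclm, chr3:122245413-122245441, - strand: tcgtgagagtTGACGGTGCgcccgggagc
Slc7a11, chr3:50443692-50443720, + strand: aactccagctTGAGAAAGCgccaacatta
Txnrd1, chr10:82859104-82859132, - strand: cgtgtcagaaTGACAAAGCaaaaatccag
Nfe2l2, chr2:75704885-75704913, - strand: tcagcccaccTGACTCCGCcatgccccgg

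The Srxn1 matches begin 45 and 158 bases before the start, those of Gclm, Slc7a11 and Txnrd1 134, 97 and 92 bases before it, and that of Nfe2l2 240 bases before it. Txnrd1 has several entries, and 1 of them holds the match. In Srxn1 another match, of TGACNNNGC, lay after the start. The Nqo1 and Keap1 windows held neither motif, which says only that these letters are not in these windows. Of the genes with a match, Nfe2l2 and Gclm were highest in KPC850, Srxn1 in KPC142, Slc7a11 in KPC469 and Txnrd1 in KPC630.

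Nqo1 (ENSMUSG00000003849, chromosome 8), which encodes the quinone reductase that turns quinones into hydroquinones, had the widest range among the 10 members on this scale, 3.13 log2 units against 2.80 for Gsta4. Gsta4 was wider without KPC142 (2.44 against 1.94 for Nqo1), without KPC490 (2.80 against 2.19) and relative to chromosome medians (2.91 against 2.63). Nqo1 stood at 48.3 CPM in KPC142, 21.1 in KPC630, 18.2 in KPC469, 12.1 in KPC180, 10.5 in KPC850 and 5.40 in KPC490. KPC142 lay 2.29-fold above the next line and KPC490 1.94-fold below the next, and the ratio of highest to lowest was 8.94 (7.21 to 11.2). The intermediate lines formed pairs within counting error: KPC630 and KPC469 had a ratio of 1.16 (0.999 to 1.34), and KPC180 and KPC850 one of 1.16 (0.941 to 1.42). The range of 4-fold rested on KPC142, since without that line it was 1.94 log2 units. The line with the most Nqo1 was the line with the least Nfe2l2, and the line with the most Nfe2l2, KPC850, was next to lowest for Nqo1.

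The 8 targets did not order the lines as Nfe2l2 did. Of the 8, 5 had a positive r with it (Gclc, Gclm, Slc7a11, Gsta4 and Txnrd1) and 3 a negative one (Nqo1, Hmox1 and Srxn1), and 48.3% of all genes had a positive r. An absolute r of 0.8 or more was reached by 0 of the 8, beside 4.46% of all genes. Nqo1 had r = -0.242 with Nfe2l2 (exact permutation p = 0.654, adjusted over all genes kept 0.999) and rho = -0.371 (exact permutation p = 0.497, adjusted 1). The r for Nqo1 depended on the line left out: it was 0.481 without KPC142 and -0.975 without KPC490. Without both KPC142 and KPC490, the lines farthest from the Nfe2l2 median, it was -0.886 over 4 lines.

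The highest values with Nfe2l2 belonged to Txnrd1 and Gclm. Txnrd1 had r = 0.617 (exact permutation p = 0.206, adjusted 0.999), rho = 0.714 (exact permutation p = 0.136, adjusted 1) and r = 0.159 without KPC142 and KPC490. Gclm had r = 0.612 (exact permutation p = 0.193, adjusted 0.999), rho = 0.657 (exact permutation p = 0.175, adjusted 1) and r = 0.949 without these lines. Among 11530 genes their r ranked 976 and 1003. No target passed an adjusted p of 0.05 with either regulator by Pearson's r or Spearman's rho in 16 relations, and 0 of all 11530 genes did. For Nfe2l2, 486 of all genes (4.22%) had an unadjusted exact p under 0.05, and for Keap1 860 (7.46%). The smallest exact p that 720 pairings can give is 0.00139 for r. It is larger for rho, where the reversed order counts as well. After adjustment over 11530 genes, a p under 0.05 would need many genes at the smallest value of the test. The lack of adjusted calls therefore says little about any relation.

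Keap1 had a positive r with 4 of the 8 targets, beside 51.2% of all genes, and 0 of the 8 reached an absolute r of 0.8, beside 8.09%. Txnrd1 lay lowest, with r = -0.751 (exact permutation p = 0.075, adjusted 0.724), rho = -0.886 (exact permutation p = 0.0333, adjusted 0.700) and r = -0.776 without KPC469 and KPC180, the lines farthest from the Keap1 median. Hmox1 lay highest, with r = 0.718 (exact permutation p = 0.136, adjusted 0.799), rho = 0.6 (exact permutation p = 0.242, adjusted 0.899) and r = 0.611 without those lines. Relative to chromosome medians r with Keap1 was -0.473 for Txnrd1 and 0.916 for Hmox1. The genes with patterns most like each gene were picked by r over the 6 lines and are a description. Nfe2l2 was followed most closely by Zfp597 (r = 0.989), Arl5c (0.984) and Dpp3 (0.979), the last a peptidase gene whose product is known to bind KEAP1. Their levels spanned little: 12.8 to 19.2 CPM for Zfp597, 1.39 to 3.50 for Arl5c and 123 to 169 for Dpp3. Keap1 was followed by Tmem205 (0.992), Zfpm2 (0.987) and Chsy3 (0.986), and Nqo1 by Zmat3 (0.991), Apmap (0.990) and Ctsh (0.978).

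**Figure D2:**
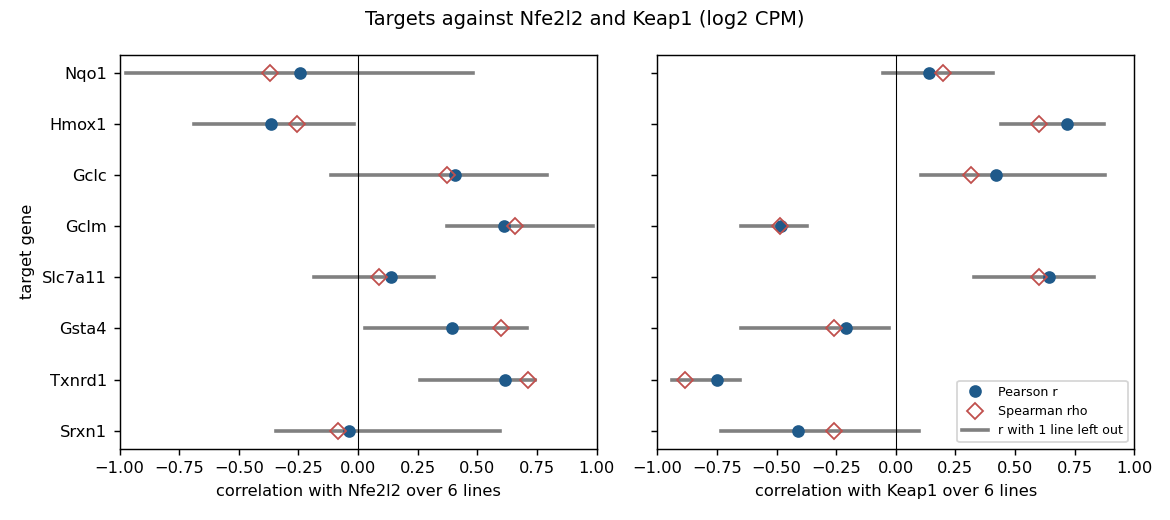
Pearson r (points) and Spearman rho (open diamonds) of each of the 8 targets with Nfe2l2 (left) and Keap1 (right), on log2 CPM over 6 lines, with the range of r when 1 line is left out (grey bars). Bars cross 0 for Nqo1, Gclc, Slc7a11 and Srxn1 with Nfe2l2, and for Nqo1 and Srxn1 with Keap1.

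Gsta4 (ENSMUSG00000032348, chromosome 9) encodes a glutathione transferase that conjugates 4-hydroxynonenal, a product of lipid peroxidation. It stood at 566 CPM in KPC850, 377 in KPC630, 363 in KPC490, 139.8 in KPC469, 104 in KPC180 and 81.2 in KPC142. The lines thus fell into KPC850, KPC630 and KPC490 above 363 CPM and the other lines below 139.8 CPM. The ratio of highest to lowest was 6.98 (6.59 to 7.39), and every step in the order exceeded counting error. A range of 4-fold remained whichever line was left out, with 2.21 to 2.80 log2 units. KPC142 was the lowest line for Gsta4 and the highest for Nqo1.

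Slc7a11 (ENSMUSG00000027737, chromosome 3), the cystine importer that feeds glutathione synthesis, was high in KPC469 (361 CPM) and KPC850 (276) and intermediate in KPC142 (197). It was low in KPC180 (109), KPC490 (106) and KPC630 (71.1). The ratio of highest to lowest was 5.07 (4.78 to 5.38), and KPC180 and KPC490 differed by less than counting error with a ratio of 1.03 (0.963 to 1.10). The range fell below 4-fold without KPC469 (1.95 log2 units) or without KPC630 (1.76). Its partner chain gene Slc3a2 varied less, from 198 CPM in KPC490 to 340.1 in KPC469.

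Gclc and Gclm encode the catalytic and the modifier subunit of glutamate-cysteine ligase, the rate-limiting enzyme of glutathione synthesis. Gclc (ENSMUSG00000032350, chromosome 9) stood at 204 CPM in KPC850, 164 in KPC469, 107 in KPC630, 107 in KPC490, 106 in KPC142 and 80.5 in KPC180. KPC850 and KPC469 were high, KPC180 was low, and the steps between KPC630 and KPC490 and between KPC490 and KPC142 were within counting error. The ratio of highest to lowest was 2.53 (2.38 to 2.6997). Gclm (ENSMUSG00000028124, chromosome 3) stood at 167 CPM in KPC850, 156 in KPC180, 147 in KPC142, 135 in KPC630, 122 in KPC469 and 84.7 in KPC490. Only KPC490 stood apart, 1.44-fold below the next line, and without it the range was 0.45 log2 units in place of 0.98. Gclm overlaps the antisense gene Gm17494 by 296 exon bases, at 1.86 to 3.54 CPM, and shares 3.92% of its 50-base stretches with other genes. The subunits shared their highest line and differed elsewhere, since KPC180 was the lowest line for Gclc and the second highest for Gclm.

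Txnrd1 (ENSMUSG00000020250, chromosome 10), the cytosolic thioredoxin reductase, had the narrowest range of the 10 members over all 6 lines. It stood at 289 CPM in KPC630, 288 in KPC180, 245 in KPC850, 241 in KPC490, 213 in KPC469 and 178 in KPC142, a ratio of 1.62 (1.55 to 1.69). Counting error covered the difference between KPC630 and KPC180 and that between KPC850 and KPC490. Srxn1 (ENSMUSG00000032802, chromosome 2), whose product repairs overoxidised peroxiredoxins, stood at 108 CPM in KPC142, 86.7 in KPC630, 80.6 in KPC850, 56.4 in KPC180, 46.7 in KPC490 and 40.2 in KPC469. Its ratio was 2.68 (2.46 to 2.93), and KPC142 was the highest line for Srxn1 and the lowest for Txnrd1.

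Hmox1 (ENSMUSG00000005413, chromosome 8), the inducible heme oxygenase, was high in KPC469 (67.6 CPM) and KPC142 (60.8). It was at 31.9 CPM in KPC180, 26.9 in KPC850, 25.8 in KPC490 and 23.5 in KPC630. The ratio of highest to lowest was 2.87 (2.58 to 3.21), and the steps between KPC850 and KPC490 and between KPC490 and KPC630 were within counting error. Macrophages are rich in Hmox1. Of 14 leukocyte and macrophage genes 12 stayed under 1 CPM in every line, 5 of them at 0 (Adgre1, Tyrobp, Cd3g, Marco and Spic). Ptprc reached 0.466 CPM at most and Cd68 reached 3.78 CPM. Cd14 ran from 25.2 CPM in KPC630 to 139 in KPC469, the lowest and highest lines for Hmox1. The lines between did not match, since Cd14 was second highest in KPC850, at 106 CPM, where Hmox1 was at 26.9 CPM, and stood at 62.3 CPM in KPC142. Cd14 made up nearly all of the list's summed level of 29.4 to 142 CPM. The part of Cd14-expressing cells in the Hmox1 levels was not tested.

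Seen by branch, each line was given the average, over the genes of the branch, of log2 CPM minus that gene's average in the 6 lines. The glutathione branch was highest in KPC850 (0.82) and lowest in KPC180 (-0.48). The thioredoxin branch was highest in KPC630 (0.34) and lowest in KPC469 (-0.44). The quinone branch, Nqo1 alone, was highest in KPC142 (1.65) and lowest in KPC490 (-1.48), and the heme branch, Hmox1 alone, highest in KPC469 (0.91) and lowest in KPC630 (-0.61). On this scale each branch had a different highest line and a different lowest line. This contrast is limited to that scale. Relative to chromosome medians, described below, the lowest line was KPC180 for Hmox1 and KPC490 for both Txnrd1 and Nqo1. Branch averages were not made on those levels. The glutathione branch had its highest line in common with Nfe2l2 (KPC850, 0.53) and its lowest in common with Keap1 (KPC180, -0.34). The heme branch had its highest in common with Keap1 (KPC469, 0.42). No other extreme line of a branch was the same extreme of either regulator. Of the glutathione genes only Gclc was lowest in KPC180, while Gclm was lowest in KPC490, Slc7a11 in KPC630 and Gsta4 in KPC142. These shared lines are a description. Over all 8 targets the mean ran from -0.38 in KPC490 to 0.33 in KPC850.

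**Figure D3:**
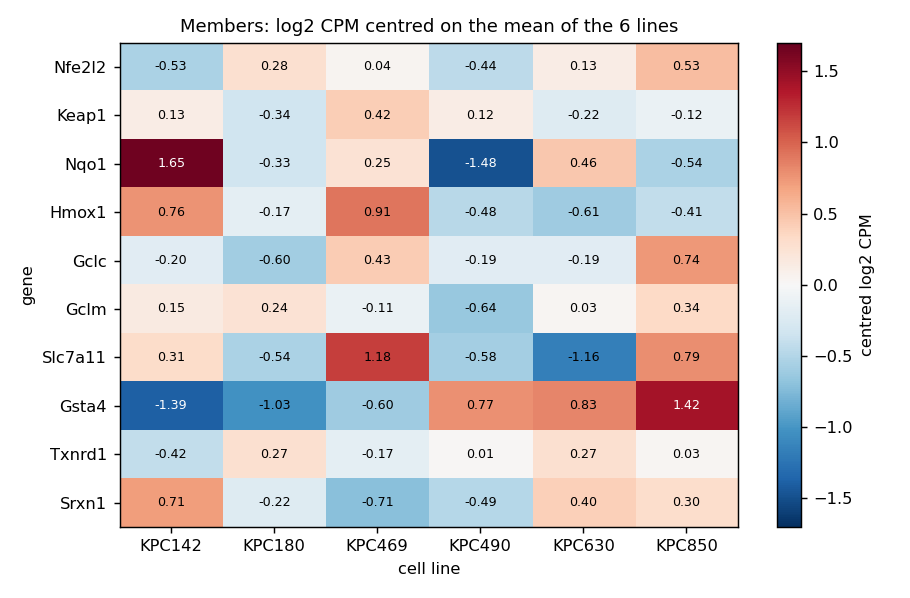
Log2 CPM of the 10 members in each cell line, centred on the gene's mean over the 6 lines, with the value printed in each field. Red is above and blue below that mean. KPC850 is at 1.42 for Gsta4 and -0.54 for Nqo1, and KPC142 at -1.39 and 1.65.

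Levels can be compared between members only per length. On a TPM-like scale, which divides counts by the length of annotated exons (GENCODE vM21) and then by their sum,, Gsta4 had the highest median over the lines at 667, followed by Nfe2l2 at 219, Txnrd1 at 117 and Gclc at 96.4. The other members had medians from 32.8 for Nqo1 to 83.2 for Srxn1. These levels depend on the length used. With the mean transcript length the median was 13.7 for Nqo1, 411 for Gsta4, 60.8 for Slc7a11, 139.9 for Gclm, 36.0 for Hmox1 and 153 for Txnrd1, beside 32.8, 667, 37.4, 76.5, 57.4 and 117 with all exons. With the longest transcript Txnrd1 was at 170.3. Gsta4 had the highest median under each length, and Nqo1 the lowest. With all exons the level per length of Gsta4 in KPC490 was 968 and that of Nqo1 11.7, while in KPC142 they were 218 and 106.

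The lines differ in the median level of whole chromosomes, and these medians move with some members. Genes of chromosome 8, which carries Nqo1 and Hmox1, had a median centred log2 CPM of 0.37 in KPC180, 0.24 in KPC142 and 0.21 in KPC469, and of -0.25 to -0.30 in KPC630, KPC490 and KPC850. Relative to it the range of Nqo1 was 2.63 log2 units in place of 3.13, with the same highest and lowest line, and that of Hmox1 1.24 in place of 1.52, with KPC180 as the lowest line in place of KPC630. Genes of chromosome 10, which carries Txnrd1, had medians between -0.28 in KPC142 and 0.35 in KPC490. Relative to these KPC180 was the highest and KPC490 the lowest line for Txnrd1. The other 7 members kept both extreme lines relative to their chromosomes. The part of chromosome level in these values was not tested.

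Other enzymes that conjugate and export with glutathione varied widely and were most often highest in KPC850. Of 27 listed genes 18 passed the filter, 8 of these (44.4%) reached 4-fold, beside 13.2% of all genes kept, and the median range was 1.84 log2 units, beside 0.95. This list and those below were chosen with earlier results of these data known, so their shares are a description. KPC850 was the highest line for 9 of the 18 and for 6 of the 8, beside 14.8% of all genes kept. Of all genes with a 4-fold range, 20% were highest in KPC850, 23.3% in KPC469, 16.7% in KPC142, 15.7% in KPC180, 12.6% in KPC630 and 11.7% in KPC490. Mgst1, a membrane-bound transferase and peroxidase, stood at 97.1 CPM in KPC850 and 0.607 in KPC180, a ratio of 160.0 (86.8 to 334.3). Gstm2 ran from 17.1 CPM in KPC850 to 0.871 in KPC490, and Gstt2 from 8.94 in KPC490 to 0.599 in KPC469. Abcc3, an exporter of conjugates, ran from 334.8 CPM in KPC850 to 53.9 in KPC142. Gsta1 had the same order of the lines as Gsta4, from 66.6 CPM in KPC850 to 8.03 in KPC142, an order found in 0.225% of genes kept. Other listed genes shared a member's order too: Cdh1 and Mgst3 that of Gclm, Nnt and Mgst2 that of Slc7a11, and Slc11a2 that of Srxn1. Since the listed genes were set beside each member, that share does not say how often some match arises. Gsta4 shared no stretch of 50 bases with another gene, whereas 90.5% of those of Gsta1 occur in another gene, mainly Gm3776, so the Gsta1 counts are uncertain.

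Enzymes that reduce quinones, carbonyls and aldehydes were also most often highest in KPC850. Of 24 listed genes 20 passed the filter, 8 of these (40.0%) reached 4-fold, beside 13.2% of all genes kept, and the median range was 1.67 log2 units, beside 0.95. KPC850 was the highest line for 11 of the 20, beside 14.8% of all genes kept, and for 6 of the 8, beside 20% of all genes with a 4-fold range. Cbr3, a carbonyl reductase, ran from 48.0 CPM in KPC850 to 2.55 in KPC180, a ratio of 18.8 (13.8 to 26.3), and the related Cbr1 from 76.9 in KPC850 to 13.8 in KPC469. Ephx1, the microsomal epoxide hydrolase, ran from 107 CPM in KPC850 to 12.1 in KPC490, and Aldh3a1, an aldehyde dehydrogenase, from 249 in KPC850 to 28.6 in KPC142. Nqo1 itself stood at 10.5 CPM in KPC850, next to lowest. Akr1c12 and Akr1c13 were highest in KPC490, where Nqo1 was lowest, at 54.2 and 77.0 CPM, and share 28.6% and 24.2% of their 50-base stretches with other genes. Ugt1a6a, among the 6 with a 4-fold range that were highest in KPC850, shares 52.1% of its stretches, mainly with Ugt1a7c. Its counts are therefore uncertain. The median centred log2 CPM in KPC850 was 0.53 for this list and 0.58 for the transferases, beside -0.00137 for all genes kept.

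**Figure D4:**
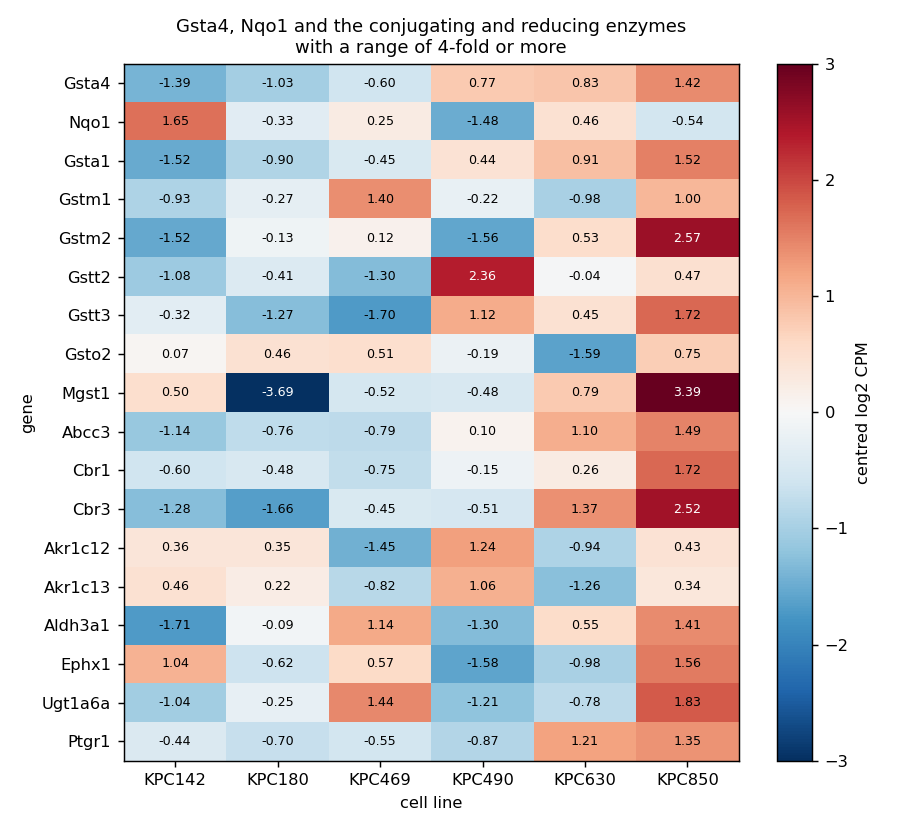
Centred log2 CPM of Gsta4, Nqo1 and the 16 conjugating or reducing enzyme genes that passed the filter with a range of 4-fold or more, by cell line, with the value printed in each field (colours saturate at 3). KPC850 is the highest line for 6 of the 8 transferase and export genes and for 6 of the 8 reducing enzyme genes, while Nqo1 is at -0.54 there. The counts of Gsta1 and Ugt1a6a, both highest in KPC850, are uncertain because of sequence shared with other genes.

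The cystine importer Slc7a11 is also a target of ATF4, the transcription factor of amino acid stress, and ATF4 targets varied over the lines. All 18 listed genes passed the filter, 10 of them (55.6%) reached 4-fold, beside 13.2% of all genes kept, and the median range was 2.09 log2 units, beside 0.95. As this list too was chosen with earlier results of these data known, its shares are a description. KPC142 was the highest line for 9, beside 19.3% of all genes kept, and KPC469 for 6, beside 21.3%, and the median centred log2 CPM was 0.71 for KPC142 and 0.59 for KPC469, while the remaining lines lay between -0.60 and -0.12. Nupr1 ran from 125 CPM in KPC142 to 12.9 in KPC180, Trib3 from 74.1 in KPC142 to 8.78 in KPC630, and Vldlr from 182 in KPC469 to 22.8 in KPC850. Cth, the cystathionine lyase that makes cysteine, stood at 55.8 CPM in KPC469 and 9.58 in KPC630, the same extreme lines as Slc7a11. In KPC850 Slc7a11 was second highest, 0.79 above its mean, while the median of the ATF4 targets was -0.29. Among the targets with a 4-fold range, values there ran from -1.06 for Vldlr to 0.36 for Atf5. The part of ATF4 in the Slc7a11 levels was not tested.

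**Figure D5:**
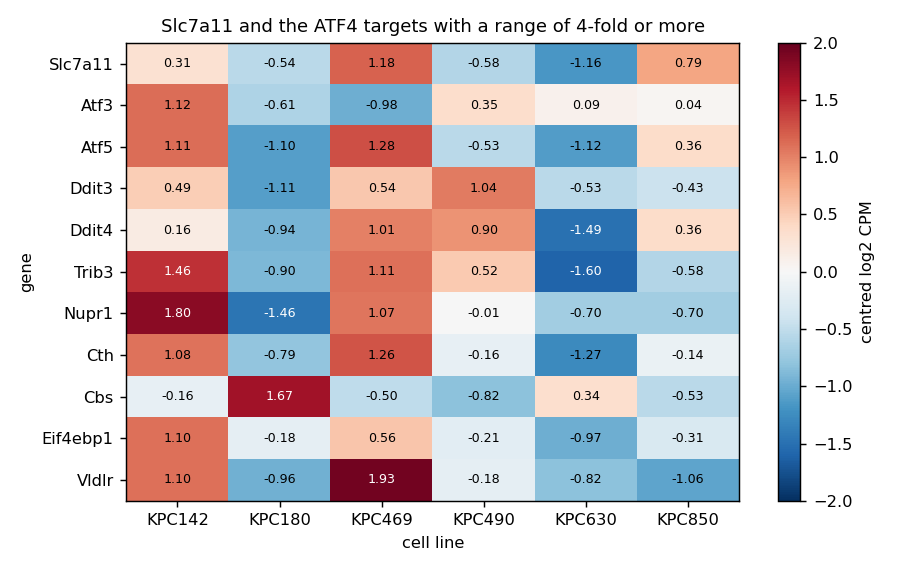
Centred log2 CPM of Slc7a11 and the 10 ATF4 target genes with a range of 4-fold or more, by cell line, with the value printed in each field. Slc7a11 is at 1.18 in KPC469, where Cth is at 1.26, and at 0.79 in KPC850, where the ATF4 targets run from -1.06 for Vldlr to 0.36 for Atf5.

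In the remaining lists of the pathway 0% to 25% of the genes kept reached 4-fold, beside 13.2% of all genes kept. Among genes that make and use glutathione, 2 of 12 kept reached 4-fold: Gpx8, at 55.6 CPM in KPC469 and 1.17 CPM in KPC850, and Chac1, which degrades glutathione, from 32.3 in KPC142 to 6.65 in KPC630. Glrx ran from 16.2 CPM in KPC469 to 5.04 in KPC180. Among thioredoxin and peroxiredoxin genes 4 of 16 did: the thioredoxin inhibitor Txnip (38.8 CPM in KPC630, 6.01 in KPC180), Sesn2 (33.6 in KPC142, 6.88 in KPC850), Sesn1 (33.1 in KPC469, 7.28 in KPC180) and Prdx4 (96.2 in KPC469, 23.1 in KPC180). Prdx1, the main cytosolic peroxiredoxin, was highest in KPC142, as Srxn1 was, at 1445 CPM against 724 to 978 CPM elsewhere.

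Heme and iron genes had 2 of 12 at 4-fold, the heme transporter Slc48a1 (166 CPM in KPC142, 36.7 in KPC490) and the iron exporter Slc40a1 (50.9 in KPC490, 12.4 in KPC469). The ferritin heavy chain gene Fth1 was highest in KPC469 (3082 CPM) and second highest in KPC142 (2436), as Hmox1 was, and lowest in KPC490 (872). Among NADPH-supplying genes 1 of 14 did, Aldh1l2 (61.0 CPM in KPC469, 10.1 in KPC630). Me1 ran from 533 CPM in KPC142 to 139 in KPC469, and G6pdx from 266 in KPC469 to 86.2 in KPC180. Aldh1l1, left out by the filter, had 33.6 CPM in KPC850 and 0.163 in KPC469, a ratio of 206 (70.1 to 1001). Superoxide and peroxide enzymes had 0 of 4 at 4-fold, and the widest of them was Park7, from 187 CPM in KPC142 to 89.6 in KPC180.

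The list of NRF2 regulators and related genes had a median range near that of all genes kept. Of 23 listed genes 20 passed the filter, 40.0% of these reached 2-fold, beside 46.7% of all genes kept, and their median range was 0.90 log2 units, beside 0.95. A range of 4-fold was reached by 1 (5.0%), beside 13.2% of all genes kept, and at 20 genes this share is a description. The gene that reached it was the related factor gene Nfe2l3, at 5.18 CPM in KPC469 and 0.758 CPM in KPC850. Mafk, a small MAF partner, ran from 81.7 CPM in KPC490 to 31.0 in KPC469, and Osgin1 from 131 in KPC630 to 48.9 in KPC490. Bach1, a repressor that competes with NRF2 at its elements, lay between 29.1 CPM in KPC142 and 55.4 in KPC490. Cul3 lay between 132 CPM in KPC490 and 189 in KPC180. Sqstm1, whose product p62 takes up KEAP1, was highest in KPC142 (668 CPM) and KPC469 (600.3) and lowest in KPC180 (314.5). Nfe2l1, the paralog of Nfe2l2, was also highest in KPC142, at 429 CPM, and lowest in KPC180, at 213.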

How the data were processed

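RNA of 6 mouse PDAC cell lines was sequenced, 1 library per line, with a stranded mRNA kit per the labels' protocols. Per the submitters' processing notes, Trimmomatic 0.36, STAR 2.7.10b, RSEM 1.3.3 and the build GRCm39 were used. Values are expected counts per Ensembl gene as the authors deposited them, of which 5.28% to 5.66% in a library have a fractional part, and these were rounded to whole numbers. The strand setting of the counting is not given in the sources used here.

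With edgeR 4.0.16 in R 4.3.3, TMM factors and log2 CPM (prior count 2) were computed, and filterByExpr at its defaults kept 11531 genes. No group was formed, so the quasi-likelihood test had no contrast. Symbols came from GENCODE vM21, which matched 52029 of 56953 identifiers. Correlations used two-sided exact permutation tests over 720 pairings with Benjamini-Hochberg adjustment over all genes kept. Ratios have exact conditional binomial intervals. The calculations were tested on simulated data. Other genes were named by list: up to 3 with the widest range, and any reaching 4-fold. Slc3a2, Krt18, Krt19, Prdx1, Bach1, Cul3, Sqstm1 and Nfe2l1 were chosen after their values were seen. The members and lists were chosen with earlier results of these data known. Alternatives were library totals, DESeq2 1.42.0 size factors, prior counts of 0.5 and 5, unrounded counts, chromosome-relative levels, other filters and leaving out each line.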

Additional observations from a re-analysis of the deposited data

How the results depend on the processing

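The 4-fold range of Nqo1, Gsta4 and Slc7a11 gave a count of 3 members under library totals, DESeq2 size factors, both other prior counts, unrounded counts and chromosome-relative levels. The choice of filter could not change this count, since all 10 members passed each filter. The count was 2 to 3 with a line left out and 7 at 2-fold. The share of all genes at 4-fold was 13.2%, 15.4% among those with 10 CPM in a line and 20.3% with no filter. The counts of members highest or lowest in a line did not change under the other normalizations. Correlations kept their sign under library totals, DESeq2 size factors, both prior counts, unrounded counts and chromosome-relative levels, and with Spearman's rho. Their adjusted exact permutation p was 0.476 or more. Chromosome-relative levels changed the size of some r. That of Keap1 with Nfe2l2 was -0.034 in place of -0.504, and that of Txnrd1 with Keap1 -0.473 in place of -0.751. That of Gclc with Nfe2l2 was 0.723 in place of 0.405, and that of Hmox1 with Keap1 0.916 in place of 0.718. With a line left out, 6 correlations changed sign. With Nfe2l2, r ran from -0.975 to 0.481 for Nqo1, -0.114 to 0.791 for Gclc, -0.185 to 0.32 for Slc7a11 and -0.345 to 0.596 for Srxn1. With Keap1 it ran from -0.0529 to 0.409 for Nqo1 and -0.731 to 0.098 for Srxn1. Why these values moved was not tested. No paired analysis was possible because the labels form no groups. Depth limits little here, since the lowest value of a member, Nqo1 in KPC490, rests on 93 counts, but intervals omit variation between cultures.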
